A study of Rattus norvegicus with 2 samples.

Results

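The genes described here handle lipid in the vessel wall. They are the scavenger receptors Olr1 and Msr1, the cholesterol exporters Abca1 and Abcg1, the lipid carrier Apoe, the lipase Lpl, the fatty acid binding protein Fabp4 and the galectin Lgals3. The members were picked by gene symbol for their function, with earlier results of these data known. Of the 9 symbols picked, among 32623 genes in all, 8 were analysed. Cd36 was not analysed here. Single-cell RNA was measured on the 10x Genomics platform in carotid arteries of SD rats, labelled 12 weeks of age, which were collected 28 days after balloon injury. The control library held the uninjured left arteries and the case library the balloon-injured right arteries of the same 2 male rats, pooled and digested with trypsin and collagenase. Each group is thus 1 library, so no p-values are given. Ranges in brackets are exact 95% intervals, which cover counting error only, and a difference between libraries cannot be told apart from a difference between these preparations.

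Scavenger receptors bind and take up modified lipoproteins and other negatively charged ligands without feedback from the cell's cholesterol, which is how macrophages turn into foam cells. The cholesterol that enters is exported by ABCA1 to lipid-poor apolipoproteins and by ABCG1 to HDL particles, and the genes of both exporters, like that of Apoe, are targets of the liver X receptors (LXR), nuclear receptors for oxysterols. In capillaries, fatty acids are freed from triglyceride by lipoprotein lipase at the luminal surface and are carried inside the endothelial cell by FABP4.

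Of the 3321 control and 5656 case barcodes, 2742 and 4930 passed the cell filter, and 21 barcode sequences occurred in both libraries. A cell was given a class when it passed exactly 1 marker gate, none of which used a lipid gene of the set. The classes held, in control and case, 1035 and 2381 vascular smooth muscle cells (VSMCs), 755 and 1482 fibroblasts, 55 and 256 endothelial cells, 49 and 124 macrophages and 19 and 52 Schwann cells, while 1 and 2 T cells were too few to describe. Levels are UMIs of a gene summed over the cells of a class and divided by all UMIs of those cells, per 1000000 (CPM). Control cells were deeper, with a median of 12619 against 5561 UMIs in VSMCs and 7013 against 4030.5 in endothelial cells, so shares of cells with a UMI are also given after thinning each cell to 2000 UMIs. The labelled classes carried their markers. All 13 macrophage markers were found in macrophages, and 12 of the 13 listed endothelial markers in endothelial cells, with Robo4 at 0, while macrophage markers held 40.0 and 31.7 CPM in endothelial cells against 13527 and 15584 in macrophages.

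Promoter windows (RefSeq, build GRCr8) were at hand for 3 of the 8 genes, Olr1, Abca1 and Apoe. They are shown as the start regions of a receptor, an exporter and a carrier of the set. Each window runs from 250 bases before to 50 bases after an annotated start site, and capitals mark motifs found on either strand. The motifs searched were a GC box (GGGCGG, in 33.1% of all 33469 promoter windows), a TATA box (TATAAA, 14.2%), an E-box (CACGTG, 6.42%), an AP-1 element (TGAGTCA, 4.63%) and the LXR element known from the Abca1 promoter (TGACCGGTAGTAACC in this window, searched with the middle bases free and found in 18 windows or 0.0538%). No marked motif overlaps another.
Abca1 (chr5:72596424-72596723, minus strand): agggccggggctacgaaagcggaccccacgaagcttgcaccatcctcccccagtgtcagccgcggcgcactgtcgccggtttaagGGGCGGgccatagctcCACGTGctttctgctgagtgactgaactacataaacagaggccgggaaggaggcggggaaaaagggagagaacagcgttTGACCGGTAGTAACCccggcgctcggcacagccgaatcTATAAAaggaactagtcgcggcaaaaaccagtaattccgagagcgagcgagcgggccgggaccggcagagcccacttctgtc
Olr1 (chr4:164634498-164634797, minus strand): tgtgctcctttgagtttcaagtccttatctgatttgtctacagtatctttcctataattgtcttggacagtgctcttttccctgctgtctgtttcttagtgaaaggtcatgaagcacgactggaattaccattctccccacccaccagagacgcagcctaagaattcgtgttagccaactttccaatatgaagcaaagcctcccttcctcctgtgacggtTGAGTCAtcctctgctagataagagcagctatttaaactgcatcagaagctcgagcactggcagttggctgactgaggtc
Apoe (chr1:88484650-88484949, minus strand, 1 of 3 annotated windows): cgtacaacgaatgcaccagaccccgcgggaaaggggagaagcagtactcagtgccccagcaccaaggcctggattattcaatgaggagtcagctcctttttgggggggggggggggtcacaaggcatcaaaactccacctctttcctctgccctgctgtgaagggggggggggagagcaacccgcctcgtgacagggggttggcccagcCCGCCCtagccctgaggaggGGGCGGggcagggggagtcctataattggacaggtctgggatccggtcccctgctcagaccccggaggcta
The Abca1 window held a GC box, an E-box, the LXR element at positions -70 to -56 from the start site and a TATA box at -32 to -27. The letters of the LXR element came from this promoter, so its match there is no finding. The Olr1 window held the AP-1 element at -30 to -24, and the Apoe window held 2 GC boxes at -41 to -36 and -21 to -16. The counts of the libraries do not bear on which of these motifs is used.

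The genes of the set differed widely in the cells that held them, and most of this order was shared by both libraries. Msr1 and Fabp4 were largely endothelial, Lpl was largely in fibroblasts, Abcg1 and Lgals3 were highest in macrophages and Apoe in macrophages or Schwann cells. For Abcg1 in control, the lead of macrophages over endothelial cells was not beyond counting error. VSMCs, the most numerous class, held the lowest level of Olr1, Abca1 and Apoe in both libraries. Levels are compared between cells and not between genes.

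**Figure D1:**
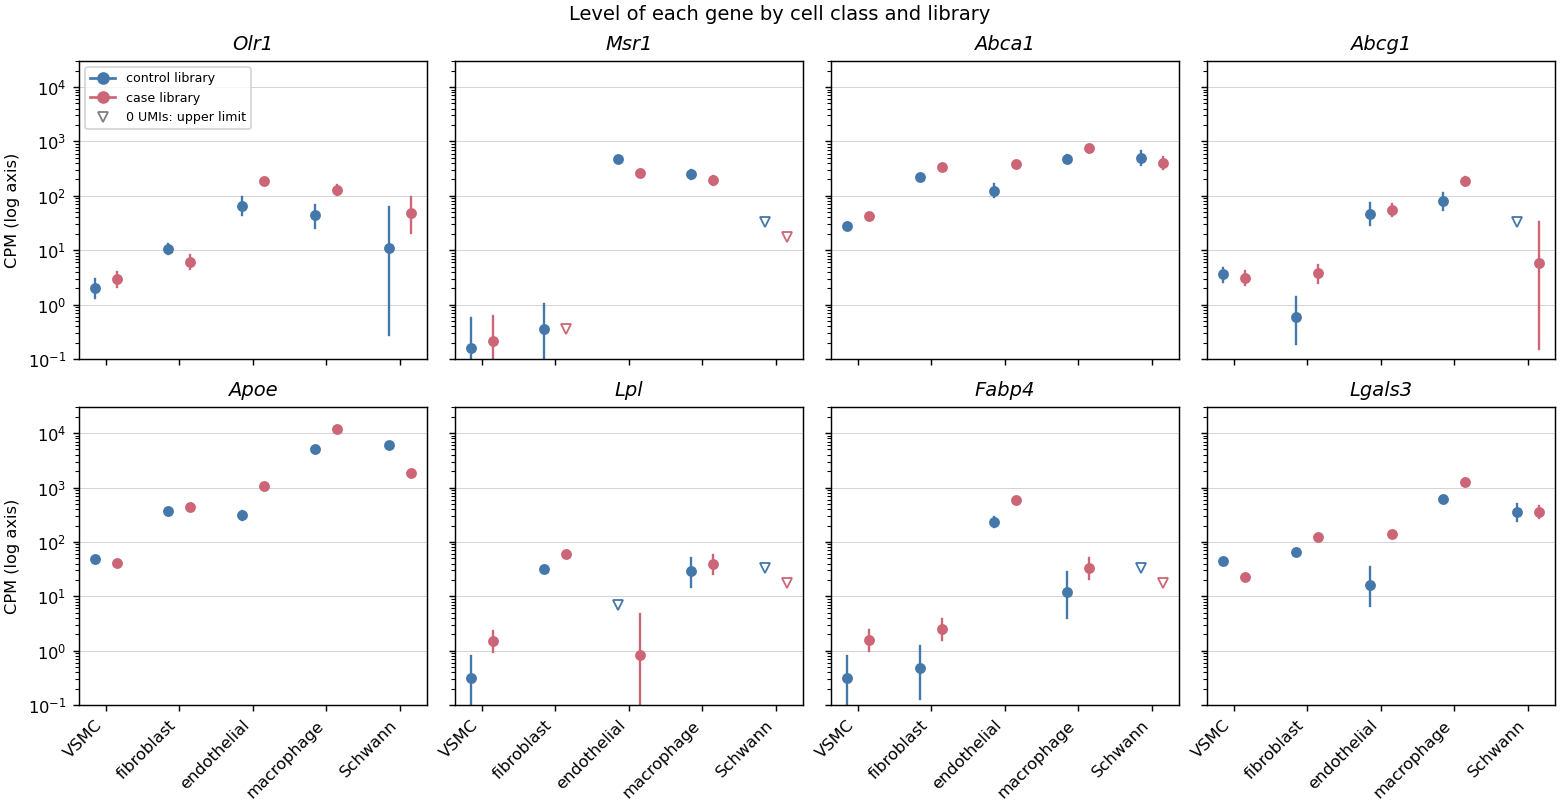
Level of each gene in CPM (log axis) in 5 cell classes, with control in blue and case in red. Points are sums over the cells of 1 library, bars are exact 95% Poisson intervals, and open triangles give the upper limit where no UMI was counted. Msr1 and Fabp4 stand out in endothelial cells, and Apoe reached 12114 CPM in case macrophages.

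**Figure D2:**
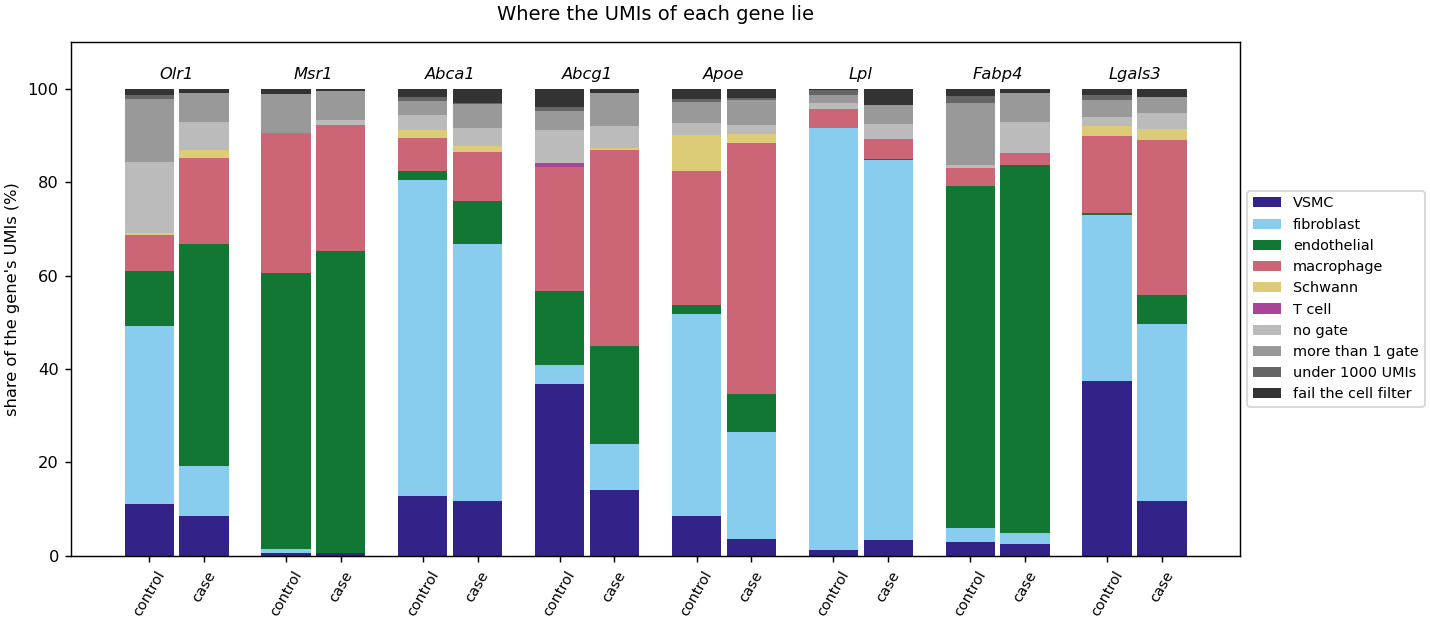
Share (%) of all UMIs of each gene that lay in each cell class, in cells passing no gate or more than 1 gate, in cells under 1000 UMIs and in barcodes that failed the cell filter, by library. Endothelial cells held 59.1% of control and 64.6% of case Msr1 UMIs, and fibroblasts held 90.4% and 81.3% of Lpl UMIs.

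Msr1 (ENSRNOG00000012779), the class A scavenger receptor best known from macrophages, was found in endothelial cells and macrophages and next to nowhere else. In endothelial cells it was measured at 480 CPM (417 to 551) in control and 264 CPM (236 to 295) in case. Macrophages held 251 CPM (205 to 304) and 192 CPM (161 to 227). The level was thus higher in endothelial cells than in macrophages in both libraries, by a log2 ratio of 0.94 (0.59 to 1.29) in control and 0.46 (0.16 to 0.76) in case. VSMCs held 2 and 3 UMIs, and fibroblasts held 3 UMIs in control and 0 in case, which allows up to 0.363 CPM. A UMI of Msr1 was seen in 37 of 55 control endothelial cells and 90 of 256 case endothelial cells, against 0.193% and 0.126% of the deeper VSMCs, the measure of background used here. After thinning the endothelial shares were 43.6% and 25.3%. From control to case Msr1 was lower in endothelial cells, by log2 -0.86 (-1.12 to -0.60), whereas in macrophages the interval of the log2 ratio, -0.77 to 0.00 around -0.38, reached 0.

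Olr1 (ENSRNOG00000056219) encodes LOX-1, the main receptor for oxidised LDL described on endothelium. Its level in endothelial cells was 65.9 CPM (43.8 to 95.3) in control and 190.0 CPM (166 to 216) in case, a log2 ratio of 1.53 (0.96 to 2.15). It was 0.36 with cells thinned to 2000 UMIs and 0.64 as a mean over cells. Macrophages showed a similar difference, from 43.8 to 127 CPM, a log2 ratio of 1.54 (0.79 to 2.36). All 28 control UMIs came from 5 of the 55 endothelial cells, while 55 of the 256 case cells held one. Endothelial cells were above macrophages beyond counting error in case (log2 0.58, 0.22 to 0.95) but not in control (0.59, -0.32 to 1.53). VSMCs stayed at 2.04 and 2.93 CPM, with a log2 ratio of 0.53 whose interval included 0 (-0.22 to 1.29). Fibroblasts went the other way, from 10.7 to 6.16 CPM (log2 -0.79), but 1 control fibroblast held 43 of the 90 UMIs, and without the cell with the most UMIs in each library the ratio was 0.03. It was 0.48 after thinning and 1.02 with the gates halved, so its direction was not settled. Of its control UMIs 15.3% lay in cells that passed no gate and 13.6% in cells that passed more than 1, against 6.05% and 6.26% in case.

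Abca1 (ENSRNOG00000018126), the exporter of cholesterol and phospholipid to lipid-poor apolipoproteins, was found in each of the 5 classes described. Fibroblasts held most of its UMIs, 67.6% in control and 55.0% in case. Per UMI it was highest in Schwann cells (505 CPM) and macrophages (482 CPM) of control, which did not differ beyond counting error, and in macrophages of case (758 CPM). It was higher in case in each of the 4 larger classes. The difference was largest in endothelial cells, from 125 CPM (93.5 to 163) to 385 CPM (351 to 422), a log2 ratio of 1.63 (1.21 to 2.06, and 0.81 after thinning), and smaller in macrophages (0.65, 0.41 to 0.90), VSMCs (0.59, 0.40 to 0.78) and fibroblasts (0.59, 0.50 to 0.67). In Schwann cells the interval of the log2 ratio, -0.89 to 0.25, included 0.

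Abcg1 (ENSRNOG00000001158) passes cholesterol on to mature HDL. Its level was low outside macrophages and endothelial cells, though VSMCs, the most numerous class, held 36.8% of its control UMIs. In macrophages it was measured at 80.3 CPM (55.3 to 113) in control and 191 CPM (159 to 226) in case, a log2 ratio of 1.25 (0.69 to 1.84). The share of macrophages with a UMI was 24.5% in control and 40.3% in case, or 10.6% and 23.5% after thinning. Endothelial cells held 47.1 and 55.0 CPM, with a log2 ratio of 0.22 (-0.52 to 1.02). In control they did not differ from macrophages beyond counting error (0.77 for macrophages over endothelial cells, -0.07 to 1.65, and -0.04 after thinning). In fibroblasts 5 UMIs in control stood against 31 in case, and in VSMCs 46 against 44.

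Apoe (ENSRNOG00000018454), the apolipoprotein through which remnant particles are cleared and which also accepts cholesterol at the cell surface, was measured in all 5 classes of both libraries. Macrophages held 5116 CPM (4900 to 5340) in control and 12114 CPM (11857 to 12376) in case, a log2 ratio of 1.24 (1.17 to 1.31). Schwann cells went the other way, from 6083 CPM (5587 to 6611) to 1813 CPM (1616 to 2028), a log2 ratio of -1.75 (-1.95 to -1.54), over 19 and 52 cells. In the control library Schwann cells were therefore the highest class and macrophages next, and in the case library macrophages were higher by a log2 ratio of 2.74. No macrophage marker was detected in control Schwann cells and 5 such UMIs in case Schwann cells. Endothelial cells held 306 CPM (256 to 363) and 1077 CPM (1019 to 1137), a log2 ratio of 1.81 (1.55 to 2.09), although 112 of the 130 control UMIs came from 5 cells. Fibroblasts (376 and 431 CPM) and VSMCs (48.1 and 40.4 CPM) differed little as whole classes, by log2 0.20 and -0.25. Within the fibroblast groups described later the ratio was 0.27 (0.16 to 0.38) in Gfpt2-high and -0.27 (-0.73 to 0.24) in Postn-positive cells. It was -0.32 (-0.51 to -0.13) in Pi16-positive and -0.67 (-0.79 to -0.55) in the remaining fibroblasts. Pi16-positive cells were 48.2% of control and 23.5% of case fibroblasts, so the class ratio mixes make-up with the level in each group. The share of macrophages with a UMI of Apoe was 65.3% in both libraries, and 59.6% and 63.0% after thinning, while the CPM differed.

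Lpl (ENSRNOG00000012181), the lipase that frees fatty acids from circulating triglyceride after it is moved to the capillary lumen, had most of its UMIs in fibroblasts. Fibroblasts held 32.3 CPM (28.6 to 36.4) in control and 60.6 CPM (55.4 to 66.1) in case, a log2 ratio of 0.91 (0.69 to 1.13). The ratio was smaller within each of the fibroblast groups described later. Lpl was seen in 9.54% and 12.7% of fibroblasts, and in 3.97% and 7.76% after thinning. Macrophages held 12 and 27 UMIs, or 29.2 and 39.0 CPM, with a log2 ratio of case over control of 0.42 (-0.61 to 1.53). Per UMI, fibroblasts and macrophages did not differ beyond counting error in control (log2 0.15, -0.68 to 1.12), and fibroblasts were higher in case (0.64, 0.08 to 1.25). Endothelial cells held 0 UMIs in control, which allows up to 7.06 CPM, and 1 UMI in case. The 7 adipocyte markers summed to 1.78 and 4.11 CPM in fibroblasts, where Adipoq, the hormone that defines fat cells, held 2 and 5 UMIs. Of the 34 case UMIs of these markers, 20 lay in the Postn-positive fibroblasts described later, which held the highest Lpl. Only Adipoq and Cfd of these markers were found there. Case macrophages held 1576 CPM of these markers, all of it Cfd, so Cfd was not particular to fat cells here.

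Fabp4 (ENSRNOG00000010805), the cytosolic carrier of fatty acids in fat cells and capillary endothelium, was endothelial in both libraries, with 73.3% of its UMIs in control and 78.7% in case. Its level there was 233 CPM (189 to 284) in control and 579 CPM (537 to 624) in case, a log2 ratio of 1.31 (1.01 to 1.63). The gene lay in few cells. Of the 99 control UMIs 92 lay in 5 of the 55 cells, and in case 86 of the 256 cells held a UMI. Endothelial cells exceeded macrophages, the next class, by a log2 ratio of 4.26 in control and 4.13 in case. Adipocyte markers held 5 UMIs in control and 9 in case endothelial cells, with 5 and 2 of the 7 at 0.

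Lgals3 (ENSRNOG00000010645) encodes galectin-3, a secreted lectin that is abundant in lipid-laden macrophages and has been described in smooth muscle cells that take on macrophage-like features. Its level in macrophages was 611 CPM (537 to 691) in control and 1273 CPM (1190 to 1360) in case, a log2 ratio of 1.06 (0.86 to 1.27), or 0.54 after thinning. Fibroblasts went from 64.1 to 122 CPM, a log2 ratio of 0.93 (0.77 to 1.08). Endothelial cells went from 16.5 CPM (6.63 to 34.0), on 7 UMIs, to 139 CPM (119 to 162), a log2 ratio of 3.08 (2.00 to 4.41). VSMCs went the other way, from 44.8 CPM (41.2 to 48.6) to 22.5 CPM (20.1 to 25.2), a log2 ratio of -0.99 (-1.19 to -0.79), just short of 2-fold. The share of VSMCs with a UMI was 31.1% in control and 10.9% in case, and 7.50% and 4.55% after thinning. The VSMCs of the libraries were spread unevenly over clusters. Of the 2 clusters of mainly VSMCs that differed most, 1 held 46 control and 1126 case cells and the other 576 and 203. Other clusters of mainly VSMCs were shared more, with 286 control and 1036 case cells in 1 and 101 and 272 in another. Values of the class thus set different mixes of clusters side by side. Schwann cells held 351 and 361 CPM.

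The members past 2-fold were then counted beside all genes in the 4 larger classes. Because members were chosen with earlier results of these data known, these counts and medians describe the set and are no test of it. Genes entered this count if the mean of both libraries reached 20 CPM. In VSMCs 3 of the 8 members reached this level and 0 were past 2-fold in either direction, where 1.05% of all genes were 2-fold or more higher in case and 2.17% lower. In fibroblasts 4 members reached it and 0 were past 2-fold, against 1.51% of all genes higher and 2.55% lower. With so few genes past 2-fold in these 2 classes, counts of 0 among 3 and 4 members are near the background, and Abcg1 in fibroblasts (log2 2.66, 1.28 to 4.38, on 5 and 31 UMIs) was under 20 CPM. In endothelial cells 7 members reached it, and 5 were 2-fold or more higher (Olr1, Abca1, Apoe, Fabp4 and Lgals3) and 0 lower, against 8.72% and 13.3% of all genes. After thinning, only Apoe (1.63) and Lgals3 (2.26) of these stayed past 2-fold, with Olr1 at 0.36, Abca1 at 0.81 and Fabp4 at 0.97. Within cells with Plvap or Emcn, described later, Abca1 and Lgals3 were higher and Msr1 was lower. This value of Msr1 rested on 12 control UMIs, a large part of them from 1 cell. Macrophages had all 8 members at this level, with 5 higher (Olr1, Abcg1, Apoe, Fabp4 and Lgals3) and 0 lower, against 9.05% and 4.92%. The median log2 ratio of the members counted was 1.53 in endothelial cells and 1.15 in macrophages, beside -0.15 and 0.08 over all genes, and -0.25 in VSMCs and 0.75 in fibroblasts, beside -0.13 and -0.07. Lgals3 in endothelial cells and Fabp4 in macrophages reached 20 CPM only through the case library, and the control value of Fabp4 in macrophages rested on 5 UMIs. Without Fabp4 the macrophage count was 4 of 7, and without Lgals3 the endothelial count was 4 of 6, while the medians include both.

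**Figure D3:**
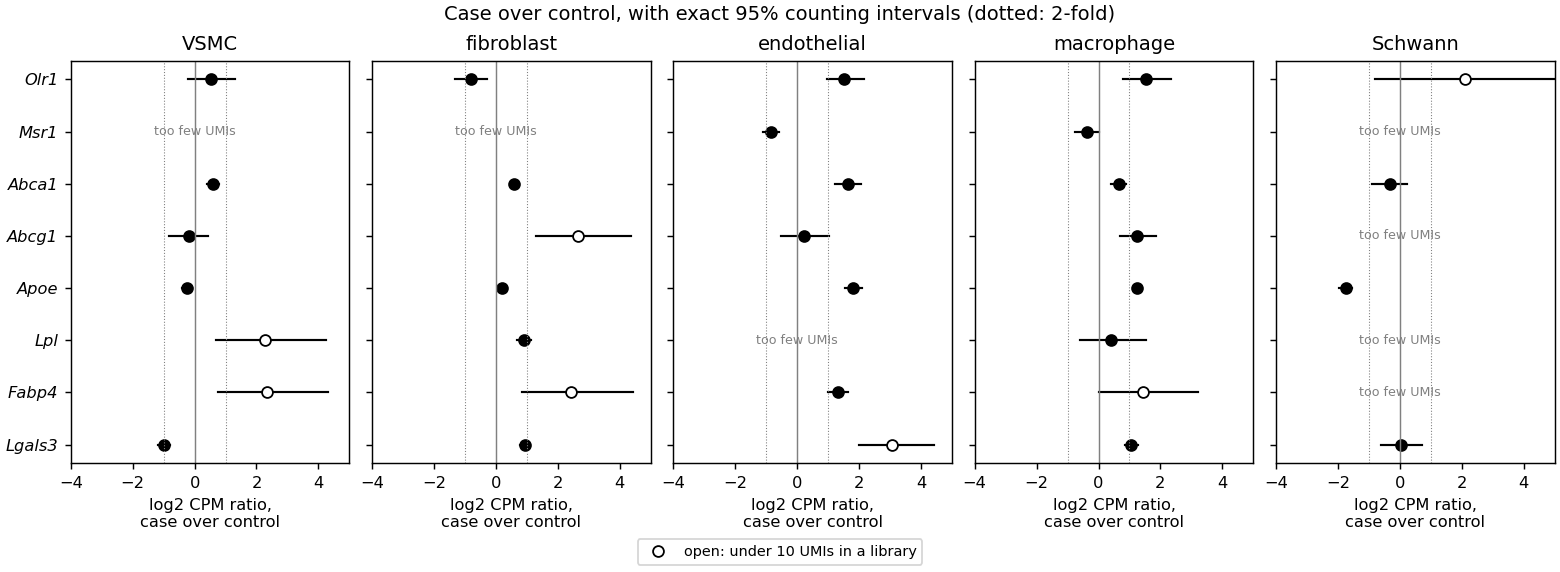
Log2 ratio of CPM, case over control, of each gene in 5 cell classes, with exact 95% intervals for counting error. Open points have under 10 UMIs in a library, dotted lines mark 2-fold, a gene with at most 3 UMIs in both libraries has no point, and the interval of Olr1 in Schwann cells runs past the axis. Lgals3 lies at -0.99 in VSMCs and above 0.9 in fibroblasts, endothelial cells and macrophages, and Apoe lies at -1.75 in Schwann cells.

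The endothelial cells were divided by 2 genes along which the set differed. Plvap, which forms the diaphragms of capillary fenestrae and caveolae, and Emcn, a mucin of capillary and venous endothelium, were not members or gate markers, and a UMI of either was found in 12 of 55 control cells (21.8%, 11.8 to 35.0) and 106 of 256 case cells (41.4%, 35.3 to 47.7). Fabp4 was measured at 1031 CPM (829 to 1267) in these cells and 26.7 CPM (12.2 to 50.6) in the others in control, and at 1304 CPM (1204 to 1410) and 92.0 CPM (71.1 to 117) in case. Apoe showed the same side, with 1363 against 32.6 CPM in control and 2472 against 139 CPM in case. So did Abca1, with 355 against 65.2 CPM and 724 against 157 CPM, and Olr1, with 275 against 11.9 CPM and 384 against 59.9 CPM. The control values of Olr1 rested on 24 and 4 UMIs, which came from the few cells given above. All control UMIs of Fabp4 in the cells without Plvap and Emcn lay in 1 cell. For Lgals3 the side was clear in case only, with 294 against 34.8 CPM, since the control cells held 2 and 5 UMIs. The gate is a single UMI, and the 12 control cells that passed it were mixed. In 1 of them Msr1 stood at 12.3 UMIs per 10000 and Fabp4 at 0.

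Msr1 lay on the opposite side. It was measured at 137 CPM (71.0 to 240) in control cells with Plvap or Emcn and 569 CPM (491 to 655) in those without, a log2 ratio of -2.05, and at 56.0 CPM (36.9 to 81.5) and 404 CPM (359 to 453) in case, a log2 ratio of -2.85. The 27 case UMIs in cells with Plvap or Emcn came from 3 cells, and 14 of them were in a cell that also carried lymphatic markers. Msr1 and Fabp4 were detected in the same cell in 0 of 55 control and 1 of 256 case endothelial cells, although 37 and 90 cells held Msr1 and 6 and 86 held Fabp4. By contrast all 6 control cells with Fabp4 and 71 of the 86 in case also held Apoe. Within the case library 5 of the 7 members at 20 CPM or more were 2-fold or more higher in cells with Plvap or Emcn and 1 was lower, beside 12.8% and 13.4% of all genes, with a median log2 ratio of 2.68 for the members and 0.11 for all genes. Since the split used genes along which the set differed, this count and median describe the split and are no test of it.

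**Figure D4:**
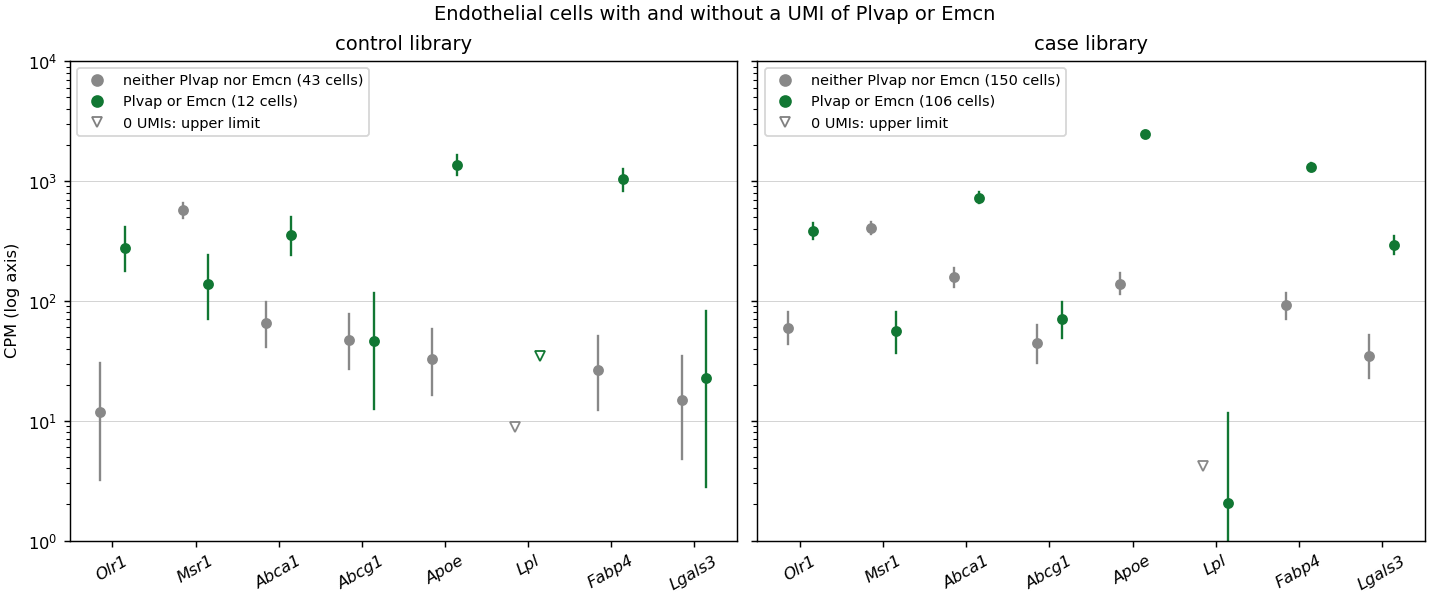
Level in CPM (log axis) of each gene in endothelial cells with a UMI of Plvap or Emcn (green) and without (grey), by library, with exact 95% Poisson intervals. Fabp4, Apoe, Abca1 and Olr1 were higher in the green cells of both libraries, and Msr1 was higher in the grey cells.

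**Figure D5:**
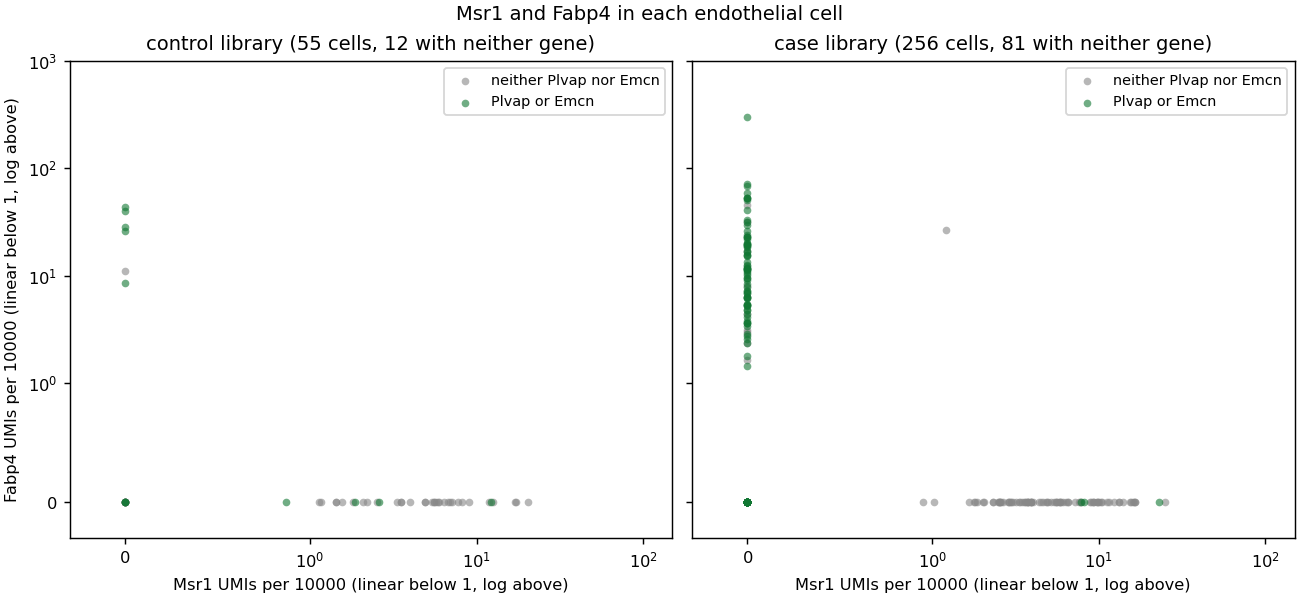
Msr1 (horizontal) and Fabp4 (vertical) UMIs per 10000 UMIs in each endothelial cell, on axes that are linear below 1 and logarithmic above, by library. Green cells hold a UMI of Plvap or Emcn and grey cells do not. Cells lie along one axis or the other or at the origin, and 1 case cell lies off both axes.

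Because the share of cells with Plvap or Emcn was higher in the case library, the class ratios above mix the make-up of the class with the level in each group of cells. Within cells with Plvap or Emcn the log2 ratio of case over control was 0.34 (0.02 to 0.67) for Fabp4, 0.86 (0.59 to 1.14) for Apoe, 1.03 (0.50 to 1.61) for Abca1 and 0.48 (-0.14 to 1.16) for Olr1. These are smaller than the class values of 1.31, 1.81, 1.63 and 1.53. The control side rests on 12 cells, with 119 UMIs of Apoe and 90 of Fabp4. A large part of both lay in 1 cell of 10982 UMIs, at 57.4 and 40.1 UMIs per 10000. The intervals do not cover this spread between cells, so how much smaller the ratios of Apoe and Fabp4 are is not settled. For Lgals3 it was 3.68 (1.80 to 6.74), resting on 2 control UMIs. Msr1 was lower in case in the cells without Plvap and Emcn, by log2 -0.49 (-0.76 to -0.22). With Plvap or Emcn its log2 ratio was -1.30 (-2.33 to -0.18), or -2.23 (-3.48 to -0.97) with lymphatic cells left out. The control side of the latter 2 ratios rested on 12 Msr1 UMIs. A large part of them lay in 1 cell of 5699 UMIs, at 12.3 per 10000, so this difference is not settled. In the cells without Plvap and Emcn the ratio was 1.27 (0.60 to 2.00) for Abca1, and it was 2.10, 1.79 and 2.34 for Apoe, Fabp4 and Olr1, on 11, 9 and 4 control UMIs. All 9 of Fabp4 lay in 1 cell of 8112 UMIs, at 11.1 per 10000. Those of Olr1 lay mainly in 1 cell of 8566 UMIs, at 3.50 per 10000. The cells without Plvap and Emcn had a median of 7013 UMIs in control and 3882.5 in case. How many of them had Plvap or Emcn missed at this depth was not tested. Where in the vessel wall either group of cells lay, and whether fewer or more of them were recovered by digestion, was not tested.

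Macrophages were also divided by markers of resident tissue macrophages (Mrc1, Cd163, Folr2, Lyve1 and F13a1), a division chosen after the data were seen. Cells with 2 or more of these 5 genes were 31 of 49 in control and 70 of 124 in case. Apoe lay almost wholly in them, with 8538 CPM against 72.2 CPM in control and 18987 CPM against 1005 CPM in case. Msr1 (408 against 18.1 CPM, and 271 against 64.2 CPM) and Abca1 (747 against 90.3 CPM, and 969 against 415 CPM) shared this side. Lgals3 did not follow this order in case, with 1126 CPM in cells with the markers and 1511 CPM in the others. Between libraries Lgals3 differed most in cells with fewer markers, from 500 to 1511 CPM, a log2 ratio of 1.60 (1.25 to 1.96), against 0.71 (0.46 to 0.98) in the others. Apoe was higher in case in cells with the markers, by log2 1.15 (1.08 to 1.22). In the others it was higher by 3.80 (2.97 to 4.77), on 12 control UMIs. For Abca1 the ratios were 0.38 (0.12 to 0.63) with the markers and 2.20 (1.42 to 3.09) in the others, the latter on 15 control UMIs. For Msr1 they were -0.59 (-0.99 to -0.19) and 1.83 (0.04 to 4.24), the latter on 3 control UMIs. The gate needs a UMI of 2 genes and so depends on depth. Cells with fewer markers had a median of 9495 UMIs in control and 4520.5 in case, and those with the markers 8442 and 5139. How many of the cells with fewer markers had markers missed at this depth was not tested.

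Fibroblasts were divided by 3 genes that were no members, along which some of the set differed. Cells high in Gfpt2, the first enzyme of the hexosamine pathway, were 213 of 755 in control and 461 of 1482 in case. They held the highest Abca1 of the fibroblasts, 322 CPM (303 to 343) and 508 CPM (483 to 534). Their Lgals3 went from 53.0 to 165 CPM, a log2 ratio of 1.64 (1.39 to 1.90), while in cells positive for Pi16, a marker of adventitial fibroblasts, it was 63.3 and 64.4 CPM. In control Lgals3 was highest in the fibroblasts of no group (86.0 CPM), which also held more Apoe (626 CPM) than the Gfpt2-high cells (386 CPM). The Postn-positive cells, named for periostin, a matrix protein of activated fibroblasts, were 5 cells in control and 95 in case. These 95 cells held the highest Lpl, 260 CPM (219 to 306), seen in 51.6% of them, and the highest Apoe, 1220.4 CPM (1130 to 1316). Beside them, case fibroblasts in none of these groups held 26.3 CPM of Lpl and 394 CPM of Apoe. Adipocyte markers, of which only Adipoq and Cfd were found, held 36.3 CPM in the Postn-positive cells of case. In the other groups of case fibroblasts the adipocyte markers held 1.60 to 2.13 CPM. Within the Gfpt2-high cells Lpl went from 63.4 to 82.3 CPM, a log2 ratio of 0.38 (0.11 to 0.65), below that of the whole class. So were the ratios of Lpl in Postn-positive (0.79, -0.60 to 2.68), Pi16-positive (0.42, -0.36 to 1.18) and remaining fibroblasts (0.68, 0.04 to 1.35). The Postn-positive cells held 143 of the 501 case UMIs of Lpl, so the class ratio mixes the make-up of the class with the level in each group.

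VSMCs varied less. Lgals3 was lower in case in the Notch1-positive cells (46.9 and 24.1 CPM, log2 -0.96) and in the remaining VSMCs (43.5 and 21.2 CPM, log2 -1.04). The Spp1-high cells, 56 and 112 in number and named for osteopontin, held 40.8 and 32.6 CPM on 26 and 20 UMIs. Their log2 ratio was -0.32, and its interval (-1.24 to 0.57) included both 0 and the ratios of the other groups. Abca1 was higher in case in all 3 groups, with log2 ratios of 1.38, 0.59 and 0.61 in the Spp1-high, Notch1-positive and remaining VSMCs. Lpl and Fabp4 were at 4 UMIs each in control VSMCs and 21 and 22 in case, and 76.2% and 77.3% of the latter came from 5 cells.

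The pathway around the members was followed in 10 lists of 95 other genes, for scavenger and lipoprotein receptors, sterol efflux, apolipoproteins, lipases, fatty acid binding, lipid droplets, lysosomal cholesterol, sterol synthesis and galectin or lipid-associated macrophage genes. In VSMCs 37 of the 95 reached 20 CPM and 0 were past 2-fold. In fibroblasts 41 reached it, and 0 were higher and 1 lower, namely Apod, an apolipoprotein of the lipocalin family, from 920 to 207 CPM (log2 -2.15). In endothelial cells 39 reached it, with 5 higher and 7 lower, beside 8.72% and 13.3% of all genes, so both counts are near the background. Insig1, which holds back sterol synthesis, went from 91.8 to 209 CPM (log2 1.19), the tetraspanin Cd9 from 3790 to 1326 CPM (log2 -1.52) and Spp1 from 419 to 15.8 CPM (log2 -4.73). Macrophages had 45 genes at this level, with 7 higher and 2 lower, beside 9.05% and 4.92% of all genes. The lower count is near the background and the higher count not far above it, with 4 of the 7 from 1 list, given below. Gpnmb, a glycoprotein of lipid-laden macrophages, went from 197 to 714 CPM (log2 1.86) and Clu, the apolipoprotein clusterin, from 31.6 to 172 CPM (log2 2.44). Of the 8 galectin or lipid-associated macrophage genes 4 were higher in macrophages (Cd9, Gpnmb, Lgals3bp and Spp1) and 0 lower, beside the same 9.05% and 4.92%, with a median log2 ratio of 0.92 against 0.08 over all genes. The median over all list genes was -0.22 in VSMCs, -0.17 in fibroblasts, -0.38 in endothelial cells and 0.22 in macrophages.

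The genes most like each member over the 9 class and library groups of at least 20 cells were ranked by Pearson's r of log2(CPM + 10) among 4795 genes, as a description without a p. Fabp4 was followed most closely by Plvap (0.988), Tie1 (0.985) and Scarb1 (0.984), and Msr1 by Parvb (0.990), Lpar6 (0.978) and Tpm3 (0.968). Abca1 was nearest to Nqo1, Ndrg1 and Fosl1 (0.973 to 0.963), Apoe to Flrt3, Ndrg1 and Bach1 (0.980 to 0.970), and Abcg1 to Il2rg, Ube2q1 and Ampd3 (0.983 to 0.957). Lpl was nearest to Mnda, Igf1 and Xdh (0.972 to 0.954), Lgals3 to Wdr26, Raly and Crebbp (0.995 to 0.967) and Olr1 to Grina, Rbms1 and Tmtc3 (0.942 to 0.927). The 9 points share 2 libraries and differ in depth.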

How the data were processed

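Both libraries came as 1 matrix of UMI counts, which the authors deposited after processing with Cell Ranger 3.1.0 per the file headers, and their processing notes name build Rnor_6.0 and Seurat. Barcodes were assigned to libraries by suffix, from the stated number of barcodes in each group. A barcode was kept with at most 20% mitochondrial UMIs, log10 UMIs and log10 genes within 2 SD of the library mean, and a gene number no more than 3 robust SD from a line fitted against UMIs. Among kept cells with at least 1000 UMIs, VSMC markers had to take 1% and fibroblast markers 0.5% of UMIs, and other classes needed 3 different markers. Cells passing more than 1 gate were left out of classes. Fibroblasts were divided in the order Gfpt2 at 20, Postn at 5 and Pi16 at 5 UMIs per 10000, and VSMCs by Spp1 at 10 per 10000 and then a UMI of Notch1.

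Counts were summed per class and library and given as CPM with exact Poisson intervals. Shares have Clopper-Pearson intervals, as does the split behind each log2 ratio. A sum of 0 was set to a floor of 3 UMIs. The control library held 24968329 UMIs (median 5981 per barcode) and the case library 28232614 (median 4778). PCR duplicates were collapsed by UMI. Scrublet called 0.219% of control and 0.00% of case cells doublets and so did not work, and doublets were left in.

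Members and lists were chosen with earlier results of these data known. Every member was named, with up to 3 list genes in each direction past 2-fold at a mean of 100 CPM per class, and the 3 most similar genes per member. Other genes were named after their values were seen, and some list genes are counted but not reported here by name. Alternatives to the filter, gates, depth, scaling and clustering are in the closing section. Steps were tested on simulated data. The tools were R 4.3.3 with edgeR 4.0.16 (for TMM factors) and Python 3.11.15 with scanpy 1.11.5, scipy 1.17.1, leidenalg 0.10.2, pandas 2.3.3, matplotlib 3.10.9 and numpy 2.4.6.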

Additional observations from a re-analysis of the deposited data

Results flagged for a closer look

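For 3 genes the case over control ratio lay on opposite sides of 0 in different cell classes, each beyond counting error. The difference between the classes was not tested against replicates. The log2 ratio of Lgals3 was -0.99 in VSMCs and 3.08 in endothelial cells, the latter on 7 control UMIs, and it was also above 0 in fibroblasts and macrophages. Apoe had a log2 ratio of -1.75 in Schwann cells, of which the control library held 19, and of 1.81 in endothelial cells. For Olr1 it was -0.79 in fibroblasts, where 1 control cell held 43 of 90 UMIs and other settings turned the direction, and 1.54 in macrophages.

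Cells outside the classes also held more of some genes in the case library than in control. In cells that passed no gate Fabp4 reached 33.9 CPM, on 59 UMIs of which 71.2% lay in 5 cells, against 1 UMI in control. The same cells held less Olr1 in case (16.7 CPM against 47.2, log2 -1.50, -2.26 to -0.75) and less Apoe (171 CPM against 265, log2 -0.63, -0.89 to -0.36). In cells that passed more than 1 gate the case levels were 267 CPM for Abca1, 22.8 CPM for Abcg1, 881 CPM for Apoe, 26.9 CPM for Lpl and 57.0 CPM for Fabp4, against 106, 6.30, 396, 6.30 and 22.7 CPM in control. These cells had a median of 9220 UMIs in case and 3127.5 in control, and their part in the class values was not tested.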

How the results depend on the processing

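No paired analysis was possible because each group is 1 library, in which the arteries of both rats were pooled. The intervals of the main values were the measure, over all members and alternatives. In the 4 larger classes 297 log2 ratios of case over control moved by less than counting error and 57 by more. For ratios of the highest over the next class these numbers were 138 and 6, and no ratio past 2-fold changed sign. Case over control ratios of Schwann cells, that of Apoe among them, were not run through the alternatives. Some of the unmoved ratios could not move. Scrublet called no cell of a class a doublet, which fixed 29 of the 297 and 16 of the 138. TMM factors did not enter the ratios between classes, which fixed another 16 of the 138.

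The number of members past 2-fold changed as follows. With the gates halved and 2 markers, 1 member was lower in VSMCs (Lgals3, log2 -1.02) and 1 higher in fibroblasts (Lpl, 1.05), and with the gates doubled and 4 markers 1 was lower in VSMCs (Lgals3, -1.14). With cells thinned to 2000 UMIs, 2 members were higher in endothelial cells (Apoe and Lgals3) and 3 in macrophages, and with the mean over cells 3 were higher in macrophages. With lists at a mean of 50 CPM, where fewer genes are counted, 2 list genes were higher and 3 lower in endothelial cells and 1 was lower in macrophages. The following alternatives were chosen after seeing the data. Without the cell with the most UMIs of the member, 2 were higher in fibroblasts (Lpl and Lgals3). In endothelial cells with Plvap or Emcn 2 members were higher and 1 lower (Msr1, on 12 control UMIs, a large part from 1 cell). In macrophages with fewer than 2 resident markers 1 was lower (Lpl). The cause was not tested.

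TMM scaling added 0.13, 0.06, 0.26 and -0.05 to the log2 ratios in VSMCs, fibroblasts, endothelial cells and macrophages, with no change of sign. Clusters in place of gates kept at least 93.1% of gated cells in their class. The values of endothelial cells and macrophages rest on 55 and 49 control cells, and those of Schwann cells on 19. Genes at a few UMIs, such as Fabp4 and Lpl outside their main class, cannot be read as changed at this depth.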
